A study of Mus musculus with 6 samples.

Results

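Spp1, Arg1, Chil3, Ccr2, Ccl2, Itgam, Lgals3 and Csf3r are genes of the phagocytes that blood supplies to damaged tissue and of the repair programme of macrophages. They were taken by gene name from a table of 20015 genes in mouse quadriceps, and all 8 were found. The 8 genes were put together because their counts differed between injured and non-injured quadriceps, so in them this difference is described and not tested. Quadriceps RNA was sequenced in 3 injured libraries, named A, B and C, from muscle labelled as quadriceps with injury of the anterior cruciate ligament (ACL) of the knee, and in 3 non-injured libraries with the same letters. The labels give Mus musculus and skeletal muscle for all 6, and no strain, genotype, sex, age, side or time after injury. Human tissue is named in the series text and in the protocol for RNA, while 96.6% of the rows carry the position of the same-named mouse gene on mm10, so the values were read as mouse. No label ties a library to an animal, so the 3 of a group may be technical repeats, and p-values cover the spread among them and no more.

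In injured muscle, monocytes leave the blood along a gradient of chemokines, above all the chemokine CCL2 (gene Ccl2) acting on its receptor CCR2 (Ccr2), and become macrophages in the tissue. Neutrophils, whose production is driven by the growth factor G-CSF through the receptor of Csf3r, arrive early. Early macrophages clear debris, and later ones make products linked to repair and fibrosis, such as arginase 1 (Arg1), the chitinase-like protein Ym1 (Chil3), osteopontin (Spp1) and galectin-3 (Lgals3). Itgam encodes CD11b, an integrin chain of all these myeloid cells. None of the genes is exclusive to macrophages: Csf3r and Itgam are shared with neutrophils, and Spp1 and Lgals3 are made by other cell types too.

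The start regions of Spp1, Itgam and Chil3 are shown because these are the members with the most counts and the one with no count in any non-injured library. RefSeq start regions on GRCm38.p6, the assembly of mm10, were at hand for 6 of the 8 genes, the others being Arg1 and Ccl2. Each sequence is the 250 bases before the start site, in the direction of transcription, at chr5:104434861-104435110 on the plus strand for Spp1, at chr7:128062390-128062639 on the plus strand for Itgam and at chr3:106167565-106167814 on the minus strand for Chil3. Capitals mark matches to the searched motifs.
Spp1: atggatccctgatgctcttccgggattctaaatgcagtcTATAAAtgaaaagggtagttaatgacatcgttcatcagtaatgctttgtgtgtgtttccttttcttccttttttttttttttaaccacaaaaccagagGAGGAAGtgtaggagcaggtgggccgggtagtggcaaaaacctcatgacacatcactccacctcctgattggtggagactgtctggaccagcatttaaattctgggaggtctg
Itgam: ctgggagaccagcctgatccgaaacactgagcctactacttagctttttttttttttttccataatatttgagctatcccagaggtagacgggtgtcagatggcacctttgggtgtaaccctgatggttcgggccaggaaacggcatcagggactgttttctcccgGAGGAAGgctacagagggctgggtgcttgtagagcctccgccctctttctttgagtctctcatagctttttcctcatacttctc
Chil3: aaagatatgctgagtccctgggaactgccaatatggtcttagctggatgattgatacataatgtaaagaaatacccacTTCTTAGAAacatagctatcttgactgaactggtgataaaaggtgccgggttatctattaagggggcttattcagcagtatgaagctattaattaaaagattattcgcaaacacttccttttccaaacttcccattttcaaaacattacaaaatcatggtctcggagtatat
The letters GAGGAAG, a core bound by the myeloid factor PU.1, were found in 3 of the 6 windows, and 10.66% of 32544 RefSeq start regions of that length hold them. The match lay at bases -113 to -107 in Spp1, at -84 to -78 in Itgam and at -86 to -80 in Csf3r, counted from the start site and all in the direction of transcription. The STAT motif TTCNNNGAA was present in Chil3 alone of the 6 (bases -172 to -164), against 7.04% of all start regions. The STAT6 form, TTC and GAA 4 bases apart, had 2 matches in Lgals3 (-238 to -229 and -225 to -216), against 5.89% of all. TATAAA was found in Spp1 at -211 to -206 and in 12.31% of all start regions. No window held the AP-1 motifs TGACTCA or TGAGTCA (4.46% of all), the C/EBP motif TTGCNNAA (9.58%) or the NF-kB motifs GGGANTTTC and GGGANTTCC (2.35%). Both strands were searched, a palindromic match was counted once, and a match is only a description of letters.

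Counts of these genes were low next to totals of 6452790 to 7499744 counts in injured and 7234159 to 8752523 in non-injured libraries. Together the 8 genes took 415, 232 and 281 counts in injured libraries A, B and C, against 40, 58 and 47 in non-injured libraries A, B and C. That is 46.3 ± 15.1 CPM (counts scaled to a common library total) in injured and 6.02 ± 0.814 CPM in non-injured libraries (SD, n = 3 each), a ratio of group sums of 7.65 with an exact 95% interval from 6.42 to 9.18. Such intervals cover counting error only. Of the 24 values in non-injured libraries 6 were 0, and in 5 of the 8 genes every non-injured value was under 10. All 8 genes had every injured library above every non-injured one, in raw counts and in CPM, and the difference was positive in all 24 letter pairs of CPM. The raw ordering held for 6.82% and the CPM ordering for 14.1% of all 20015 genes, and nothing is read from this for genes chosen on the same difference. The RNA is called myonuclear in the name of the deposited table and total in the extraction protocol. Without values per cell, more cells of a type and more RNA per cell in injured muscle cannot be told apart.

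**Figure D1:**
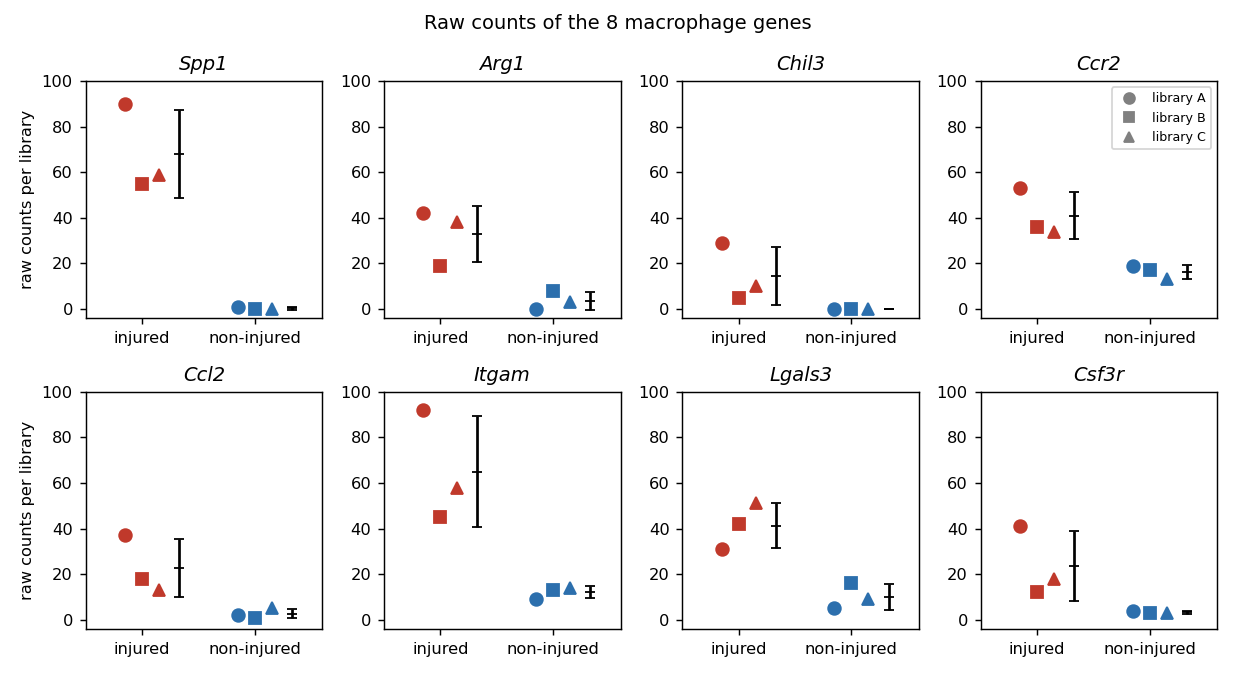
Raw counts of each of the 8 genes by library, with injured libraries on the left of each panel and non-injured ones on the right; symbols give the letter of the library and black bars the mean and SD of 3 libraries. In every panel the lowest injured library stands above the highest non-injured one, and Spp1 and Chil3 have at most 1 count in any non-injured library.

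The attractant Ccl2 was scarce in both groups. This gene on chromosome 11 (82035571 to 82037453) had 37, 18 and 13 counts in injured libraries A, B and C, against 2, 1 and 5 in non-injured libraries A, B and C. Injured A held the most by far, and the groups did not overlap. The group sums of 68 and 8 counts gave a ratio of 10.2 with a counting interval from 4.88 to 24.5. The letter pairs differed widely for Ccl2, at 22.2-fold, 24.0-fold and 2.77-fold in A, B and C.

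Its receptor Ccr2, which marks monocytes fresh from the blood, was, of the 7 members with counts in both groups, the one with the smallest ratio of sums, and it had the most counts in non-injured muscle. Ccr2 (chromosome 9, 124101950 to 124113557) had 53, 36 and 34 counts in injured libraries A, B and C and 19, 17 and 13 counts in non-injured libraries A, B and C. The ratio of sums was 3.0 (counting interval 2.14 to 4.27), and the letter pairs lay close together at 3.35-fold, 2.82-fold and 2.78-fold.

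The wider monocyte chemokine list held 17 other genes, of which 1 did not pass the count filter. Another 8 had no row among the deposited genes (Ccl7, Ccl8, Ccl12, Ccl3, Ccl4, Ccl5, Ackr1 and Ly6c2). Of the 8 tested, 1 rose and 0 fell in injured muscle by edgeR's quasi-likelihood test (adjusted p under 0.05). At an unadjusted p under 0.05, 5 were higher and 0 lower; DESeq2 called 3 higher and limma-voom 0, with 0 lower in both. Of all 16095 genes 0.715% were called higher and 0.0311% lower by edgeR, 9.25% were higher and 6.11% lower at an unadjusted p under 0.05, DESeq2 called 1.57% and 0.466%, and limma-voom 0.329% and 0.0373%. The riser was Ccr1, a receptor for other monocyte chemokines, with 25, 27 and 15 counts in injured and 6, 3 and 1 in non-injured libraries A, B and C (log2 fold change 2.96 ± 0.60 SE, adjusted p 0.0443 by edgeR). Every injured library was above every non-injured one for Ccr1. Its edgeR adjusted p was 0.0852, 0.143 and 0.0703 when injured A, B or C was left out, and 0.0385, 0.149 and 0.218 for non-injured A, B or C. With the library letter as a replicate block, a pairing taken from these data, the background rose to 3.21% higher and 2.65% lower genes. In that fit Ccr1 and Csf1r, the receptor for the macrophage growth factor, rose (edgeR adjusted p 0.00755 and 0.0098). Cx3cr1, the fractalkine receptor of patrolling and resident cells, had 9, 36 and 16 counts in injured and 13, 8 and 9 in non-injured libraries A, B and C, which overlap.

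The adhesion chain Itgam was the best counted member after Spp1 in injured muscle and the gene with the least certain reads. Itgam (chromosome 7, 128062640 to 128118491) had 92, 45 and 58 counts in injured libraries A, B and C, against 9, 13 and 14 in non-injured libraries A, B and C. Injured A was again highest, and the ratio of sums was 6.47 (counting interval 4.52 to 9.51). Its deposited values are fractional in injured B and C and in non-injured A. A second gene model on the same strand, Gm49368, overlaps it and contains 66.34% of the 50-base stretches of its transcripts. Gm49368 was given 0, 5.17 and 18.65 counts in injured libraries A, B and C and 5.72, 0 and 0 in non-injured libraries A, B and C. With both models added, the values became 92, 50.37 and 76.35 in injured and 15, 13 and 14 in non-injured libraries, so the gap between the groups remained and the injured libraries B and C stood further apart.

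The partner chain of CD11b rose. Itgb2 encodes CD18, the beta-2 chain without which CD11b does not reach the cell surface. It had 78, 31 and 43 counts in injured and 12, 10 and 8 in non-injured libraries A, B and C, with the same order of injured libraries as Itgam. The log2 fold change of Itgb2 was 2.59 ± 0.42 (SE, adjusted p 0.0155 by edgeR). The call was lost without injured A (adjusted p 0.0522), without non-injured B (0.0543) and without non-injured C (0.108), and its edgeR adjusted p was 0.0107, 0.0487 and 0.0188 without injured B, injured C or non-injured A. Per kilobase of exon, Itgam averaged 1.94 ± 0.762 and Itgb2 2.49 ± 1.25 CPM in injured libraries, against 0.30 ± 0.072 and 0.41 ± 0.081 CPM in non-injured libraries (SD, n = 3 each), so the levels of both chains lay within 1 SD of each other in the injured libraries. In the list of beta-2 integrins, their ligands and signalling proteins, 1 of 8 tested genes rose and 0 fell by edgeR, with 4 higher and 0 lower at an unadjusted p under 0.05. DESeq2 called 2 higher and limma-voom 0, and both called 0 lower. With the block 3 rose, the others being Tln1 (talin, which activates integrins; adjusted p 0.0284) and the kinase Syk (0.00413). Itgal, Tyrobp and Fcer1g did not pass the count filter, and Itgax had no row among the deposited genes.

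The neutrophil side of these genes was thin. Csf3r (chromosome 4, 126024550 to 126044440) had 41, 12 and 18 counts in injured libraries A, B and C, against 4, 3 and 3 in non-injured libraries A, B and C. Injured A alone held more than the other injured libraries together, and the ratio of sums was 8.49 (counting interval 4.36 to 18.5). Of the 50-base stretches of Csf3r 10.75% also occur in transcripts of other genes, mostly AC105061.2. Of 11 defining neutrophil markers 9 had no row among the deposited genes. The other 2, S100a9 and Cxcr2, did not pass the count filter. S100a9, a calcium-binding protein abundant in neutrophils, had 13, 4 and 4 counts in injured and 0, 2 and 4 in non-injured libraries A, B and C. Cxcr2, the receptor that draws neutrophils into tissue, had 12, 31 and 10 counts in injured and 3, 8 and 0 in non-injured libraries. For Cxcr2 injured B was highest, the library in which Csf3r was lowest among the injured. The part of neutrophils in the Csf3r difference was not tested.

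Genes around the G-CSF receptor gave no call by edgeR with all 6 libraries and no block. The ligand gene Csf3 had 2, 11 and 4 counts in injured and 1, 4 and 0 in non-injured libraries A, B and C and did not pass the count filter. Of the 7 tested genes of the G-CSF, JAK-STAT and neutrophil list, 0 rose and 0 fell by edgeR, with 3 higher and 0 lower at an unadjusted p under 0.05; DESeq2 and limma-voom called 0 in either direction. With the block 1 rose, Socs3, the feedback inhibitor of this receptor (adjusted p 0.00221 by edgeR), with 128, 104 and 54 counts in injured and 74, 20 and 17 in non-injured libraries A, B and C. Without non-injured A its edgeR adjusted p was 0.00683 with no block. Socs3 overlapped between the groups while each letter pair was higher in injured. The kinase genes Jak1 and Jak2 had log2 fold changes of -0.08 and -0.22.

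Among the effector genes, Chil3 had no count in any non-injured library. Chil3 (chromosome 3, 106147554 to 106167564, minus strand) had 29, 5 and 10 counts in injured libraries A, B and C, against 0, 0 and 0 in non-injured libraries A, B and C. With a floor of 3 counts set for the whole non-injured group, the ratio of sums would be 17.5. That is not a minimum, because the counting interval of the non-injured sum reached 3.7 counts. The counting interval of the ratio began at 13.7 and had no upper end. Injured A held most of the Chil3 counts, 5.81 times the CPM of injured B. Chil3 did not pass the count filter, because injured B was too low, and so has no fitted fold change. Of its 50-base stretches 26.89% also occur in transcripts of other genes, mostly its near copy Chil4. How reads from such stretches were counted is not given, so the uncertain part of its counts is not known.

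Arg1, which turns arginine into ornithine and urea, was low but present in part of the non-injured muscle. This gene on chromosome 10 (24915221 to 24927484, minus strand) had 42, 19 and 38 counts in injured libraries A, B and C, against 0, 8 and 3 in non-injured libraries A, B and C. The groups did not overlap, and the ratio of sums was 10.8 (counting interval 5.76 to 22.3). The letter pairs B and C gave 3.16-fold and 13.5-fold, and letter A has no ratio because non-injured A was at 0. No 50-base stretch of Arg1 occurred in another gene.

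The other arginine and ornithine genes gave no call by edgeR with all 6 libraries and no block. Of 8 tested, 0 rose and 0 fell by edgeR; at an unadjusted p under 0.05, 1 was higher and 1 lower. DESeq2 called 0 higher and 1 lower, and limma-voom 0 in either direction. With the block Slc7a2, an arginine transporter, fell (log2 fold change -0.78 ± 0.21 SE without the block, blocked adjusted p 0.000542), with 563, 353 and 421 counts in injured and 1167, 846 and 737 in non-injured libraries A, B and C. Those values do not overlap. Slc7a2 was also called lower by DESeq2 (adjusted p 0.0206) and by edgeR without injured A (0.0406). Odc1, which takes ornithine into polyamines, had 513, 423 and 433 counts in injured and 621, 340 and 295 in non-injured libraries, which overlap. Arg2 and Nos2, the mitochondrial arginase and the inducible nitric oxide synthase, had no row among the deposited genes.

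Other genes of alternative activation, the state that interleukin-4 induces in macrophages and of which Arg1 and Chil3 are mouse markers, were mixed. Of 12 tested 1 rose and 0 fell by edgeR, with 4 higher and 0 lower at an unadjusted p under 0.05; DESeq2 called 2 higher and limma-voom 0, and both called 0 lower. The riser was Mrc1, the mannose receptor CD206, with 133, 110 and 199 counts in injured and 90, 88 and 77 in non-injured libraries A, B and C (log2 fold change 1.04 ± 0.21 SE, adjusted p 0.0443 by edgeR). For Mrc1 injured C was highest, and its edgeR adjusted p was 0.0606, 0.0291 and 0.142 when injured A, B or C was left out and 0.0555, 0.149 and 0.219 for non-injured A, B or C. With the block the interleukin-4 receptor chain Il4ra rose too (adjusted p 0.00413), at 71, 102 and 67 counts in injured and 24, 68 and 28 in non-injured libraries, where injured C and non-injured B are within 1 raw count of each other. Retnla, a classic mouse marker of this state, had 1, 1 and 11 counts in injured and 6, 15 and 12 in non-injured libraries, a fitted log2 fold change of -1.08 ± 0.77 (SE, edgeR adjusted p 0.544). Cd163, a scavenger receptor of resident macrophages, had 126, 71 and 107 counts in injured and 124, 89 and 80 in non-injured libraries, which overlap.

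Spp1 had the widest gap. Spp1 (chromosome 5, 104435118 to 104441050) had 90, 55 and 59 counts in injured libraries A, B and C, against 1, 0 and 0 in non-injured libraries A, B and C. Injured B and C were alike in CPM, at 8.41 and 8.40, and injured A stood at 13.8. Among the members it varied little over the injured libraries, with 1.64 times between the highest and the lowest CPM. Of its 50-base stretches 11.59% also lie in Gm42793, an unclassified model on the same strand inside the gene.

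Of the receptors of osteopontin, the hyaluronan receptor Cd44 rose. It had 112, 71 and 70 counts in injured and 18, 24 and 23 in non-injured libraries A, B and C (log2 fold change 2.22 ± 0.29 SE, adjusted p 0.00397 by edgeR). Leaving out any of the 6 libraries kept this call, with edgeR adjusted p from 0.00794 to 0.0321. Among 9059 genes averaging at least 50 counts, Cd44 lay nearest to the mean standardised log2 CPM of the 7 fitted members. Its root mean square difference over the 6 libraries was 0.0724, against a median of 1.40 over all candidates. The next were the ribosomal pseudogene Rpl3-ps1 (0.0731), Sh3d19 (0.103), Spred1 (0.116) and the fibronectin gene Fn1 (0.118). The members were chosen on the difference between the groups, so their nearest genes share it by construction. This nearness adds no evidence for Cd44. Of 9 osteopontin receptor genes tested 1 rose and 0 fell by edgeR, with 5 higher and 1 lower at an unadjusted p under 0.05; DESeq2 and limma-voom each called 1 higher and 0 lower. With the block the integrin chain Itgb1 rose (adjusted p 0.0118) and Itga4 fell (0.0148). Itgav and Itgb3 form the vitronectin receptor, which osteopontin also binds. Itgav had 286, 260 and 312 counts in injured and 374, 422 and 402 in non-injured libraries, and Itgb3 had 15, 25 and 29 in injured and 15, 12 and 4 in non-injured libraries; neither passed the test (edgeR adjusted p 0.463 and 0.204).

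**Figure D2:**
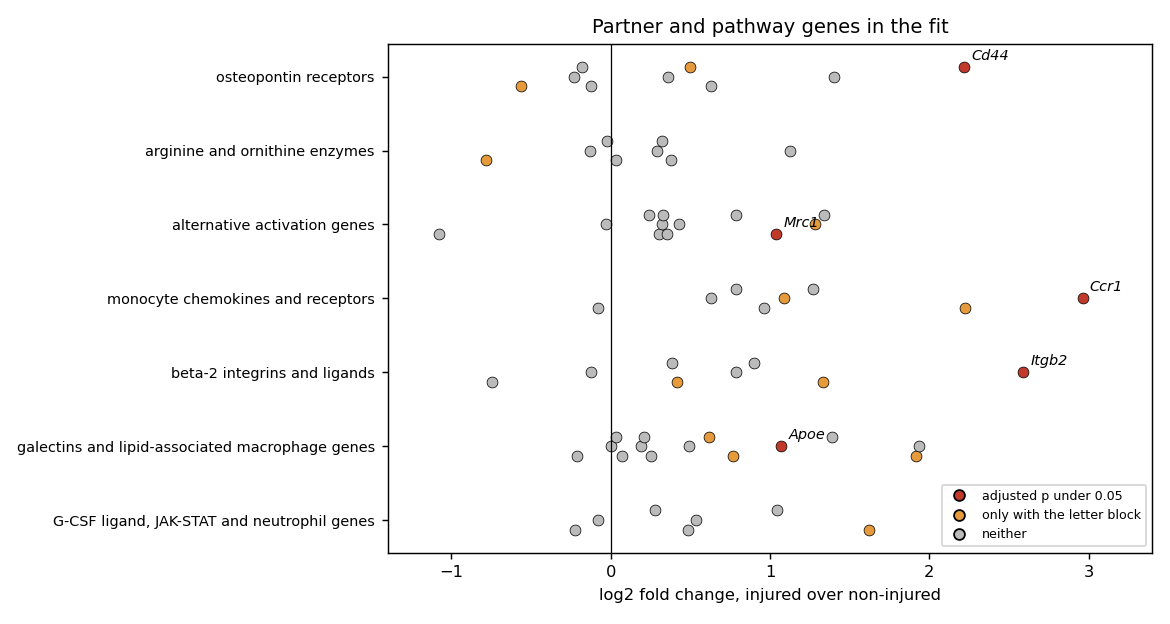
Fitted log2 fold change, injured over non-injured, of each tested gene of the 7 lists of partner and pathway genes, 1 row per list; red points passed an adjusted p under 0.05, orange points did so only with the letter as a block. The 5 red points are Cd44, Mrc1, Ccr1, Itgb2 and Apoe, all on the higher side, and the arginine and G-CSF rows have none.

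Lgals3 went its own way among the injured libraries. Lgals3 (chromosome 14, 47367751 to 47386160) had 31, 42 and 51 counts in injured libraries A, B and C, against 5, 16 and 9 in non-injured libraries A, B and C. It is the member in which injured A was lowest. The ratio of sums was 4.94 (counting interval 3.29 to 7.63), with 7.44-fold, 3.50-fold and 6.03-fold in letter pairs A, B and C. The RefSeq start site of Lgals3 lies 6109 bases inside the deposited gene, and no 50-base stretch of its transcripts occurs in another gene.

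Genes that accompany Lgals3 in lipid-laden and scar-associated macrophages gave 1 call. Of 14 tested in the list of galectins and these genes, 1 rose and 0 fell by edgeR, with 6 higher and 0 lower at an unadjusted p under 0.05; DESeq2 called 3 higher and limma-voom 1, and both called 0 lower. Apoe, an apolipoprotein that macrophages secrete, had 565, 460 and 484 counts in injured and 335, 291 and 234 in non-injured libraries A, B and C (log2 fold change 1.07 ± 0.16 SE, adjusted p 0.01 by edgeR). Without non-injured B its edgeR adjusted p was 0.0602 and without non-injured C 0.128, and in the other 4 fits without 1 library it ran from 0.00546 to 0.0486. With the block Lgals1, Gpnmb and Cd63 rose too, at adjusted p of 0.0204, 0.0176 and 0.00977. Gpnmb, a membrane glycoprotein of such macrophages, had 28, 27 and 54 counts in injured and 16, 11 and 7 in non-injured libraries, and the lipid receptor Trem2 had 15, 10 and 15 in injured and 8, 0 and 4 in non-injured libraries. Both were separated between the groups, and Gpnmb, like Lgals3, was highest in injured C.

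Over all 7 lists, each gene taken once, 5 of 66 tested genes rose and 0 fell by edgeR, that is 7.58% against 0.715% of all genes, with 28 higher and 2 lower at an unadjusted p under 0.05, where 9.25% and 6.11% of all genes lay. DESeq2 called 11 higher and 1 lower and limma-voom 2 and 0. With the replicate block 15 rose and 2 fell (22.7% higher, against 3.21% of all genes). The lists were chosen with earlier results of these libraries known, so these shares describe them and are not independent evidence. The median log2 fold change was 0.40 over the 66 genes, with 0.00 over all 16095. By list it was 1.02 for the monocyte chemokines and receptors, 0.60 for the beta-2 integrins, 0.48 for the G-CSF list, 0.37 for the galectin list, 0.36 for the osteopontin receptors, 0.34 for alternative activation and 0.16 for the arginine enzymes. Genes tested with a mean count within the span of the members, 7.33 to 38.5 per library, had a median of 0.26 over 5968 genes, so low counts as a class were shifted towards injured. The 7 fitted members, chosen on this difference, had 3.04.

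The make-up of the summed counts differed between the groups. In injured libraries A, B and C, Spp1 took 21.69%, 23.71% and 21% of the counts of the 8 genes, against 2.5%, 0.0% and 0.0% in non-injured libraries A, B and C. Ccr2 took 12.77%, 15.52% and 12.1% in injured and 47.5%, 29.31% and 27.66% in non-injured libraries. The share of Itgam stayed between 19.4% and 22.17% in injured and between 22.41% and 29.79% in non-injured libraries.

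**Figure D3:**
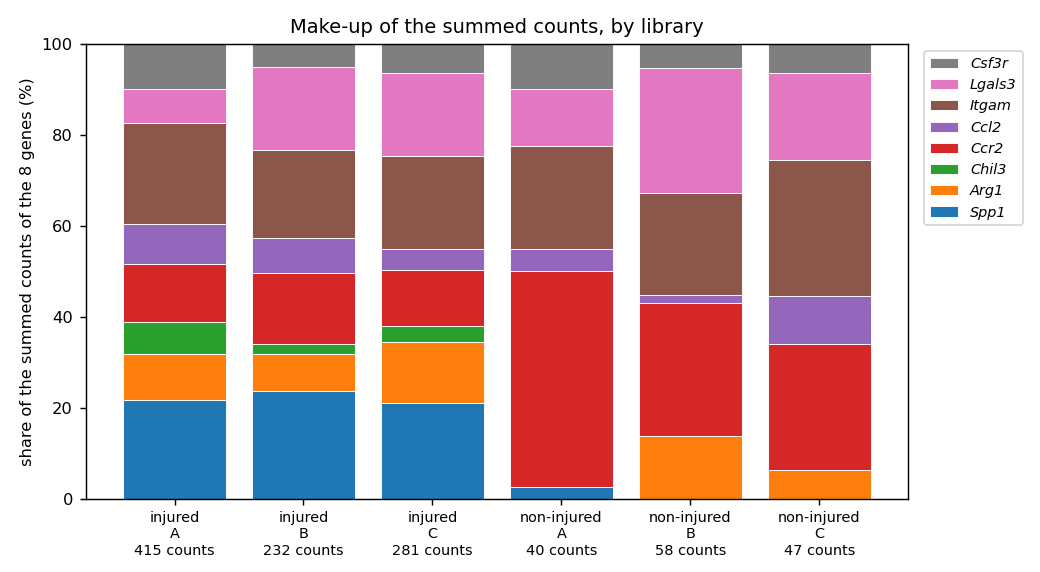
Share of each gene in the summed counts of the 8 genes, in percent, with the 3 injured libraries on the left and the 3 non-injured on the right and the summed counts below each bar. Spp1 fills more than 20% of every injured bar and at most 2.5% of a non-injured bar, while Ccr2 is the largest or near the largest part of each non-injured bar.

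Levels between genes were compared per kilobase of exon. In injured libraries Spp1 led with 6.19 ± 1.88 CPM per kilobase, followed by Lgals3 (3.31 ± 0.689), Ccl2 (3.01 ± 1.75), Arg1 (2.21 ± 0.815), Itgam (1.94 ± 0.762), Chil3 (1.35 ± 1.20), Csf3r (0.986 ± 0.66) and Ccr2 (0.91 ± 0.256; SD, n = 3 for each). From Lgals3 down, neighbours in this order differed by less than 1 SD of either gene. In non-injured libraries Lgals3 led with 0.66 ± 0.323, more than 1 SD of either gene above the next, and Ccl2, Ccr2 and Itgam were level at 0.304 ± 0.253, 0.302 ± 0.052 and 0.30 ± 0.072. Arg1 followed with 0.197 ± 0.207, Csf3r with 0.116 ± 0.023 and Spp1 with 0.026 ± 0.045, and Chil3 stood at 0.

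Most members were highest in injured A. This held for 7 of the 8 genes (87.5%), Lgals3 being the exception, while injured A was the highest injured library in 34.5% of the 16095 tested genes and in 28.4% of the 7351 genes with a mean count in the span of the members. Relative to the mean of the 3 injured libraries, injured A stood at 2.01 for Chil3, 1.76 for Csf3r, 1.66 for Ccl2, 1.45 for Itgam, 1.35 for Spp1, 1.32 for Ccr2 and 1.31 for Arg1, and at 0.773 for Lgals3. Without injured A the log2 ratio of summed CPM of the 8 genes was 2.65, against 2.94 with all libraries.

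**Figure D4:**
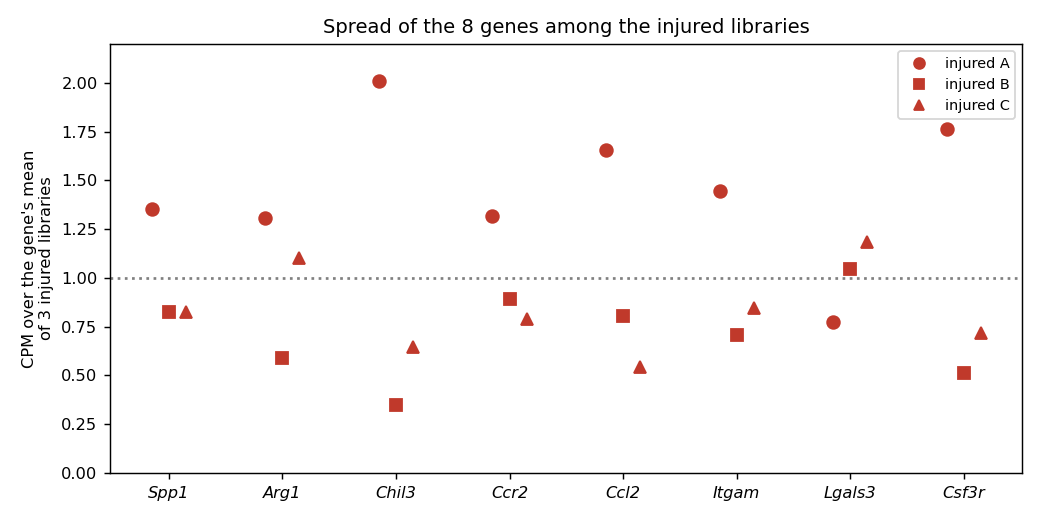
CPM of each of the 8 genes in the injured libraries, divided by the mean of the 3 injured libraries of that gene; the dotted line is the mean. Injured A is the highest point for 7 genes and the lowest for Lgals3.

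Markers of other cells were read beside these genes. Markers of resident macrophages, of which 7 of 10 were tested, summed to 80.5, 58.2 and 79.7 CPM in injured and 48.6, 34.2 and 37.2 CPM in non-injured libraries A, B and C. Of these 7 genes 2 rose and 0 fell by edgeR (5 higher and 0 lower at an unadjusted p under 0.05; DESeq2 3 higher, limma-voom 1, both 0 lower), namely Mrc1 and C1qb, and 4 rose with the block. The red cell genes Hba-a1, Hba-a2, Hbb-bs, Hbb-bt and Alas2 summed to 324, 266 and 132 CPM in injured and 83.8, 151 and 71.4 CPM in non-injured libraries, overlapping between injured C and non-injured B, with injured A highest as in most members. Neutrophil markers summed to 1.99 to 5.35 CPM in injured and 0.383 to 1.15 CPM in non-injured libraries, and lymphocyte markers, 3 of 11 measured, to 3.84 to 7.04 CPM in injured and 2.30 to 5.99 CPM in non-injured libraries. Endothelial markers summed to 123 to 130 CPM in injured and 105 to 119 CPM in non-injured libraries, fibro-adipogenic progenitor markers to 587 to 691 CPM in injured and 682 to 756 CPM in non-injured, satellite cell markers to 63.4 to 82.5 CPM in injured and 60.2 to 74.0 CPM in non-injured, and dendritic and mast cell markers to 26.2 to 31.6 CPM in injured and 27.9 to 30.3 CPM in non-injured libraries. The muscle fibre markers, led by titin (Ttn), summed to 174522 to 183312 CPM in injured and 190296 to 198858 CPM in non-injured libraries, so the tissue label held in all 6. By counts, these lists were led by Mrc1 (resident macrophages), Hba-a2 (red cells), Cxcr2 (neutrophils), Cd3e (lymphocytes), Cdh5 (endothelium), Gsn (fibro-adipogenic progenitors), Myod1 (satellite cells) and Zbtb46 (dendritic and mast cells). Some sums rest on the leading gene. Without Gsn the fibro-adipogenic markers summed to 249 to 267 CPM in injured and 215 to 235 CPM in non-injured libraries, and 10 of the 11 genes had a positive log2 fold change. Without Zbtb46 the dendritic and mast cell markers summed to 7.04 to 12.5 CPM in injured and 5.87 to 6.56 CPM in non-injured libraries. Without Cd3e the lymphocyte markers left, Cd8a and Ms4a1, summed to 2.42 to 4.59 CPM in injured and 0.94 to 1.15 CPM in non-injured libraries. These 3 reduced sums were separated and higher in injured muscle. The genes removed had negative log2 fold changes (Gsn -0.31, Zbtb46 -0.29, Cd3e -0.65). In the reduced dendritic and mast cell list, Xcr1, Cd209a and Mcpt4 had ratios of group sums under 1 (0.888, 0.863 and 0.694). Flt3, Clec9a, Ccr7, Kit and Tpsb2 had ratios over 1. Without Ttn the muscle fibre markers overlapped, at 41629 to 51278 CPM in injured and 45979 to 52712 CPM in non-injured libraries. Of the 5 red cell genes 1 rose by edgeR (Hba-a1, adjusted p 0.0422) and 4 with the block. By edgeR 0 rose and 0 fell of 9 endothelial, 11 fibro-adipogenic, 7 satellite cell, 10 muscle fibre, 3 dendritic and mast cell and 1 lymphocyte gene tested, with 0, 3, 1, 0, 1 and 0 at an unadjusted p under 0.05; DESeq2 and limma-voom called 0 in each, and with the block 1 rose, the fibro-adipogenic Cxcl14. The part of blood, neutrophils, resident macrophages or these other cells in the differences of the 8 genes was not tested.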

How the data were processed

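Expression was deposited by the authors as estimated counts for 20015 genes in 6 libraries, and no gene stays under 10 in all of them. STAR 2.7.8a, Partek and DESeq2 and the builds mm10 and hg19 are named, without a role, in the submitters' processing notes; how reads were counted, with what strand setting and on which gene models, is not given in the sources used here. The name of the table calls the RNA myonuclear, while the extraction protocol describes total RNA. Estimated counts were rounded to whole numbers, filtered with filterByExpr (16095 genes left), scaled by TMM and tested across all genes with edgeR 4.0.16 (quasi-likelihood, two-sided, Benjamini-Hochberg, adjusted p under 0.05) in R 4.3.3. DESeq2 1.42.0 and limma 3.58.1 (voom) were alternatives, and the fits were tested on simulated data. CPM use the TMM-scaled totals. Intervals of count sums and ratios are exact (Poisson, conditional binomial). Exon lengths, overlaps and 50-base stretches came from GENCODE M21, and motifs from RefSeq start regions.

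The members and lists were chosen with earlier results of these data known. Named genes are the 8 members, pathway genes past the threshold with or without the block, a fixed panel of direct partners, the gene with the most counts in each list of other cells, and the 5 genes nearest in pattern. Other genes named from the lists, such as S100a9, Retnla, Cd163, C1qb, Jak1 and Jak2, were chosen after their values were seen. Some list genes are not reported here.

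The meaning of the letters A, B and C is unstated. Deviations from group means over 16095 genes correlated at 0.316, 0.208 and 0.113 for letters A, B and C between the groups, all over 0.1. Between unlike letters the correlations ran from -0.232 to 0.064, the highest being injured B with non-injured C. The letters were taken as pairs from the data alone, so the block was chosen from the same values that it was used to test. Libraries of a group differed well beyond counting noise, with a chi-square per degree of freedom from 5.45 to 16.6.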

Additional observations from a re-analysis of the deposited data

How the results depend on the processing

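The log2 ratio of summed CPM of the 8 genes, 2.94, lay between 2.65 and 3.10 without any 1 library, at 3.02 without Itgam and at 2.92 with library totals, all within the spread between letter pairs. Of 84 recomputed log2 fold changes of the 7 fitted members, 0 changed sign and 82 stayed within the spread between replicates. The other 2 were those of Spp1 by limma-voom (6.79) and without non-injured A (9.20), where its only non-injured count is gone. In each member every injured library lay above every non-injured one, so leaving out 1 library could not change the sign. The unchanged signs are therefore not evidence for the difference. Arg1 moved from 3.39 to 4.51 without non-injured B, and Ccl2 from 3.28 to 4.09 without non-injured C and to 2.69 without injured A. Csf3r moved from 3.04 to 2.34 without injured A.

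Counts of calls depended on the setting more than the values did. Of all genes, 115 rose and 5 fell; with the letter as a replicate block 516 and 427 did, among them all 120, by DESeq2 252 and 75, and by limma-voom 53 and 6. Lower calls numbered 17 without a filter and 3 under a minimum mean of 50 counts. Without 1 library, 20 to 104 rose and 0 to 25 fell. Of the 66 pathway genes 5 rose and 0 fell; 15 rose and 2 fell with the block, 11 rose and 1 fell by DESeq2, and 2 rose by limma-voom. Under the minimum mean of 50, 3 of 36 tested rose, and without 1 library 1 to 8 of 68 to 72 tested rose and 0 to 1 fell. The single gene called in all 6 of those fits was Cd44. Members with fewer than 10 counts in a library are limited by depth: in a library of this size a value of 0 does not show absence.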
